A study of Mus musculus with 12 samples.

Results

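The 8 genes described here encode the receptors and adaptors with which a cell detects foreign or misplaced nucleic acid: Ddx58, Ifih1, Dhx58, Ddx60, Mavs, Tmem173, Tlr3 and Eif2ak2. They were taken by name from the 29428 gene rows of an RNA-seq table. The table's own gene names gave 7 of them, and Tmem173, which the table lists as Sting1, was found by its Ensembl identifier (ENSMUSG00000024349). The set was chosen by measured values: the level of Ddx58, which was high in untreated STHdhQ111 cells. Differences between the untreated lines are therefore given as values with no test for every member, and Ddx58 has a test only between the treated groups.

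RNA was sequenced in 12 libraries of immortalized mouse striatal cells, 3 per group. STHdhQ7 cells carry huntingtin with 7 glutamine repeats and STHdhQ111 cells carry the mutant protein of Huntington's disease with 111. Each line was left untreated (Q7-C and Q111-C) or given a combined inflammatory stimulus of IFNγ (100 ng/mL) and LPS (5 μg/mL) for 24 h (Q7-T and Q111-T). One line stands for each genotype, so genotype and other differences between the lines cannot be told apart, and IFNγ and LPS were only given together. The 3 libraries of a group are called biological replicates, but no source used here says how separate they were, so the p-values measure the spread between these libraries.

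RIG-I (Ddx58) and MDA5 (Ifih1) are helicases that bind double-stranded or uncapped RNA in the cytosol and signal through MAVS on mitochondria. LGP2 (Dhx58) binds the same kinds of RNA but lacks the signalling domain and modulates the others, and DDX60 is a related helicase described as an antiviral cofactor. STING (Tmem173) is the adaptor of the DNA sensor cGAS, TLR3 detects double-stranded RNA in endosomes, and PKR (Eif2ak2) is a kinase that stops translation when it binds such RNA. Most of these genes are known targets of interferon, whose response elements include the ISRE, bound by IRF factors, and the GAS element.

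The sequence before the transcription start is shown for 4 members, chosen after the search described next: Ddx58, Ddx60 and Eif2ak2 hold a match to one of the motifs, and Mavs, the adaptor, holds none. Windows of 250 bases were available for 6 of the 8 members in RefSeq (GRCm38.p6). Both strands were searched for the ISRE core GAAANNGAAA, the GAS element TTCNNNGAA and the shorter IRF core AANNGAAA, which overlaps the ISRE core and was added after the sequences had been seen. Capitals mark the matches. The windows lie at chr4:40239826-40240075 for Ddx58 and chr17:78882573-78882822 for Eif2ak2, both on the minus strand, and at chr8:61927837-61928086 for Ddx60 and chr2:131233813-131234062 for Mavs, both on the plus strand. All are written 5′ to 3′ and end at the base before the start.
Ddx58: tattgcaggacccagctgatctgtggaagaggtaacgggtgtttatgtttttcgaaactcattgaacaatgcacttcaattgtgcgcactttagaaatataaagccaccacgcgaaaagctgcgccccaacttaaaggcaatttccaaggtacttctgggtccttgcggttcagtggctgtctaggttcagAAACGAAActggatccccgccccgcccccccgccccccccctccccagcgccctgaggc
Ddx60: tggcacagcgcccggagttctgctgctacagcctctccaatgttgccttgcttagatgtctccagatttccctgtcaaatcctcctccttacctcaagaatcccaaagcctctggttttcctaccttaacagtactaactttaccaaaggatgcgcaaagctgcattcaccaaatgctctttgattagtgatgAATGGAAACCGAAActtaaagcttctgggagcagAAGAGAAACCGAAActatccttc
Eif2ak2: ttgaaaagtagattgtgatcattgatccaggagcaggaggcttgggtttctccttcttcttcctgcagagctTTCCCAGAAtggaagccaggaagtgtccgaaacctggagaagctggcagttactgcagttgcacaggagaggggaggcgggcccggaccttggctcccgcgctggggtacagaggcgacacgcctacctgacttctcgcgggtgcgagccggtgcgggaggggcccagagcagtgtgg
Mavs: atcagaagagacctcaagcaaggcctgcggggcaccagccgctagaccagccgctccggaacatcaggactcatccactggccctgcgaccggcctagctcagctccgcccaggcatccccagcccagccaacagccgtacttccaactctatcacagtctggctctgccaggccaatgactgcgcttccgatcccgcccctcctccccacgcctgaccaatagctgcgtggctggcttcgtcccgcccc

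Ddx60 held the ISRE core at positions -53 to -44 and again at -19 to -10 from the start. The ISRE core was present in 2.98% of the 32851 mouse promoter windows of this length. Eif2ak2 held a GAS element at -178 to -170, a match found in 7.02% of windows. The IRF core occurred in Ddx58 at -59 to -52, in Tlr3 on the opposite strand at -59 to -52, and in Ddx60 at 4 positions that overlap its ISRE cores. That short motif was in 21.3% of windows. The Tlr3 window (chr8:45410381-45410630) precedes the RefSeq start but lies inside the longer gene span given for Tlr3 below (chr8:45395665-45411080). Neither Mavs nor Ifih1 held a match to any of the 3 motifs in these windows.

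**Figure D1:**
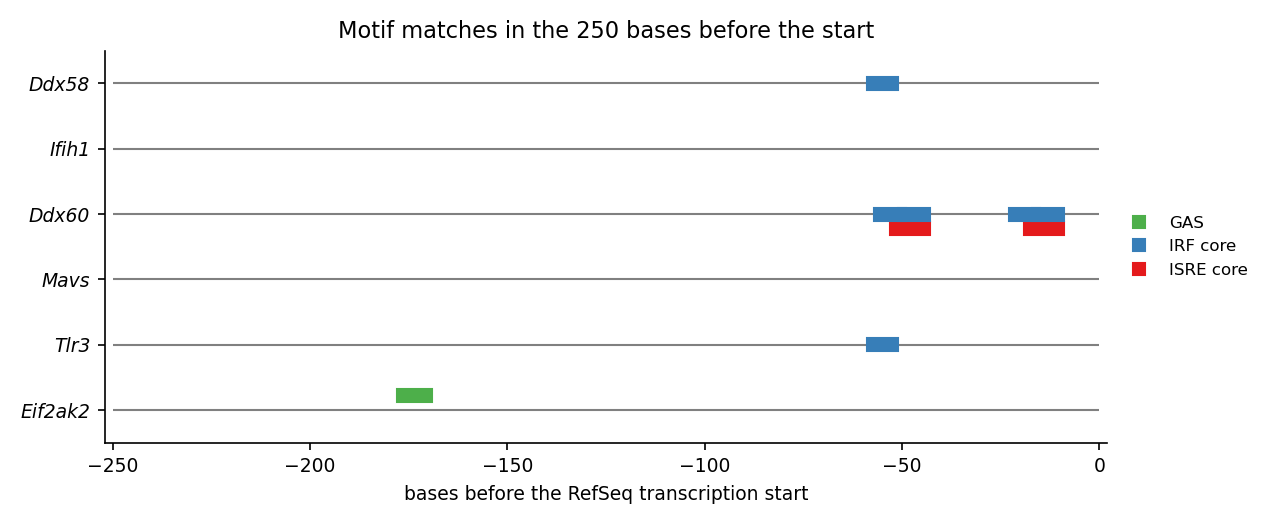
Positions of the motif matches in the 250 bases before the RefSeq transcription start of 6 members (x axis: bases before the start). The 2 ISRE cores, with the IRF cores that overlap them, are in Ddx60, and the Mavs and Ifih1 windows are empty.

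Levels are given in TPM, a unit scaled by transcript length and library, so that levels of different genes can be set side by side. Fold changes come from a fit of the estimated read counts with edgeR over the 16127 genes that reached 0.5 TPM in at least 3 libraries, and all 8 members passed that filter. A gene is called changed where the adjusted p is below 0.05 and the change is at least 2-fold. The scales differ slightly: on the log2 TPM scale the median gene of STHdhQ111 cells was 0.27 higher before and 0.34 higher after treatment than that of STHdhQ7 cells, against -0.02 and -0.03 in the edgeR fit, which sets the library sizes from the genes themselves.

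Libraries held 57505990 to 96417834 estimated counts. A pair of STHdhQ7 libraries stood apart, Q7-C replicate 1 and Q7-T replicate 2, which lay closer to the former than to its own group. In them long genes were low: relative to the group mean, the median log2 deviation of genes over 5959 bases long minus that of genes up to 1729 bases was -0.99 in Q7-T replicate 2, -0.83 in Q7-C replicate 1 and -0.51 in Q111-T replicate 2. The members were low there too, with deviations in Q7-T replicate 2 of -1.75 for Ddx58, -1.57 for Tlr3, -1.18 for Eif2ak2 and -0.97 for Mavs, but 0.12 for Tmem173, and its part in the results was not tested. The libraries labelled striatal expressed mesenchymal markers (Col1a1, Col1a2, Col3a1, Vim, Acta2 and Pdgfrb, with Thy1 summed 4243 to 4838 TPM in Q7-C, 3285 to 3713 in Q7-T, 3671 to 3829 in Q111-C and 1502 to 1622 in Q111-T), and 10 of the 13 neuronal markers were in the table. Of these Tubb3, Stmn2 and Foxp1 reached 1 TPM in every library. Map2 did so in every Q7-C, Q111-C and Q111-T library, and Ppp1r1b in every Q111-C library. Snap25, Syt1, Gad1 and Gad2 were listed at 0 in all Q7-C libraries, and Snap25, Syt1 and Gad1 in all Q7-T libraries. In STHdhQ111 cells Gad1, Gad2 and Bcl11b were at 0 in all Q111-C libraries, and Snap25 and Gad2 in all Q111-T libraries. The neuronal list summed to 100.8 to 178 TPM in STHdhQ7 and 22.1 to 47.8 TPM in STHdhQ111 libraries. Of 9 macrophage markers 6 were in the table, and only Cd68 reached 1 TPM in every library of any group. The macrophage list summed to 5.93 to 8.45 TPM before and 8.81 to 15.3 TPM after treatment of STHdhQ7 cells and to 14.5 to 16.9 and 40.8 to 58.0 TPM in STHdhQ111 cells, the order of the groups seen for Ddx58, with Adgre1 at 0 in Q7-C, Q111-C and Q111-T libraries and Ptprc at 0 in Q7-T, Q111-C and Q111-T. The 6 astrocyte markers in the table summed to 1.05 to 1.98 TPM (untreated) and 1.33 to 1.85 TPM (treated) for STHdhQ7. For STHdhQ111 they summed to 9.01 to 11.1 TPM and 4.16 to 5.24 TPM. Slc1a3 reached 1 TPM in every STHdhQ111 library and Aldh1l1 in every Q111-T library. Aqp4 was at 0 in Q7-C and Q111-C, and S100b at 0 in Q7-T. The 3 oligodendrocyte markers in the table stayed below 1 TPM in every library. The part of these lists in the results was not tested, and in cultures measured in bulk fewer expressing cells and less RNA per cell cannot be told apart.

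**Figure D2:**
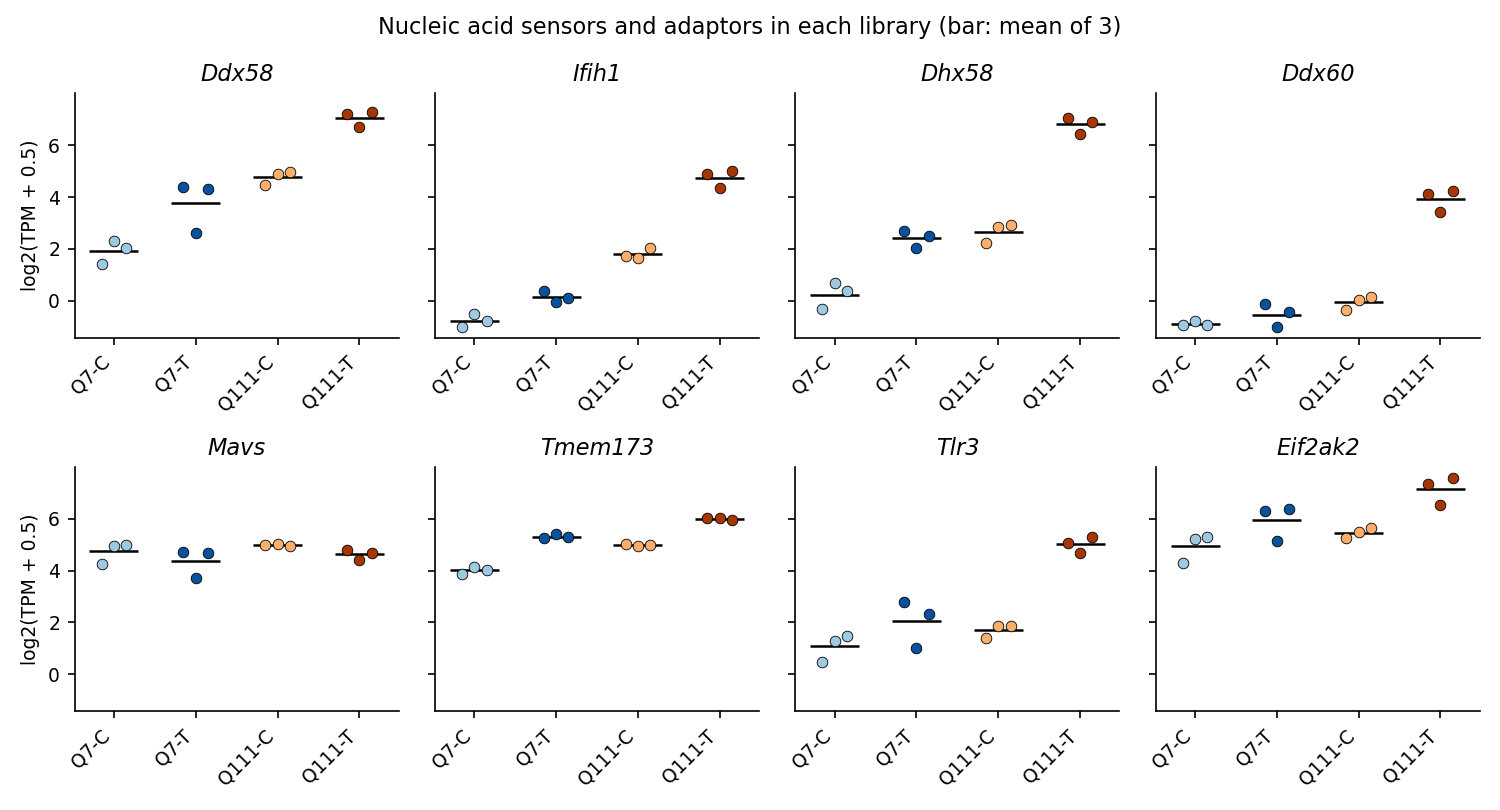
Level of each member in each of the 12 libraries (y axis: log2 of TPM + 0.5; points: libraries; bar: mean of 3). The Q111-T libraries lie above all others for every member but Mavs.

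Ddx58 encodes RIG-I, the receptor for short uncapped RNA, and lies at chr4:40203773-40239825 on the minus strand. It measured 2.16, 4.40 and 3.63 TPM in Q7-C libraries and 20.7, 5.60 and 19.5 TPM in Q7-T libraries. In Q111-C libraries it measured 21.3, 29.0 and 31.1 TPM and in Q111-T libraries 146, 102 and 153 TPM. In TPM the 4 groups did not overlap, but the lowest Q111-C value lies next to the highest Q7-T value, and relative to Mavs in the same library these 2 groups overlap (0.676 to 1.02 and 0.443 to 0.807). The means were 3.40 ± 1.14 (Q7-C), 15.3 ± 8.39 (Q7-T), 27.1 ± 5.15 (Q111-C) and 134 ± 27.7 TPM (Q111-T; SD, n = 3 each). Between the untreated lines the ratio of means was 7.99 in TPM and 6.65 after the libraries were scaled by the median of ratios, a difference that chose the gene. Between the treated lines Ddx58 was upregulated by 2.83 ± 0.30 (log2 fold change ± SE, edgeR, adjusted p = 2.80e-05).

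Ifih1, which encodes the long double-stranded RNA receptor MDA5 (chr2:62595798-62646211, minus strand), was hardly detected in untreated STHdhQ7 cells. Its level was 0, 0.198 and 0.0758 TPM in Q7-C, from 0, 60 and 27 estimated counts. Q7-T libraries held 0.802, 0.458 and 0.576 TPM. The values were 2.83, 2.60 and 3.59 TPM in Q111-C and 29.4, 20.0 and 31.5 TPM in Q111-T. As for Ddx58, the 4 groups did not overlap in TPM. Treatment raised Ifih1 by 3.01 ± 0.67 in STHdhQ7 cells (edgeR adjusted p = 0.0212) and by 3.24 ± 0.62 in STHdhQ111 cells (adjusted p = 0.00335). The treated lines differed by 5.05 ± 0.68 (adjusted p = 0.000177). The STHdhQ7 call rests on low counts and was lost without Q7-C replicate 3 (2.85, adjusted p = 0.103), over a range of 9.15e-05 to 0.361 in all the alternatives tried, in which the log2 change ran from 0.56 to 4.17 (2.48 to 4.17 when single libraries were left out).

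Dhx58 encodes LGP2 (chr11:100694884-100704271, minus strand) and overlaps the antisense gene Dhx58os. The libraries were prepared with a strand-specific kit, but no source used here says whether the counting used strand. Q7-C libraries held 0.300, 1.09 and 0.785 TPM and Q7-T libraries 5.96, 3.59 and 5.13 TPM. Q111-C libraries held 4.25, 6.63 and 7.07 TPM, which overlap the Q7-T values, and Q111-T libraries held 132, 86.6 and 118 TPM. Treatment upregulated Dhx58 by 2.96 ± 0.31 in STHdhQ7 cells (edgeR adjusted p = 7.98e-05) and by 4.32 ± 0.32 in STHdhQ111 cells (adjusted p = 2.81e-06). Treated STHdhQ111 and STHdhQ7 cells differed by 4.12 ± 0.31 (adjusted p = 2.97e-06), or 17.4-fold.

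Ddx60 (chr8:61928087-62037695, plus strand), the helicase with the pair of ISRE cores shown above, had the lowest mean of the 8 genes in every group. It measured 0.0220, 0.0883 and 0.0282 TPM in Q7-C and 0.409, 0 and 0.234 TPM in Q7-T, where replicate 2 had 0 counts and the other libraries 117 and 103. Q111-C libraries held 0.276, 0.529 and 0.603 TPM. Q111-T libraries held 17.1, 10.4 and 18.5 TPM and lay far above the rest, while the other neighbouring groups overlapped. In STHdhQ111 cells the rise was 5.10 ± 0.89 (edgeR adjusted p = 0.0018), and between the treated lines the difference was 5.92 ± 0.93 (adjusted p = 0.0005). Outside Q111-T only 2 libraries, both Q111-C, reached 0.5 TPM, so Ddx60 entered the fit through the group in which it was high. With no filter on low genes the values were 5.08 (adjusted p = 0.0017) and 5.91 (adjusted p = 0.00042). Over all the alternatives tried they ran from 3.44 to 5.29 and from 3.72 to 6.66, the lowest with limma on log2(TPM + 1) and the highest without Q111-C replicate 3 and without Q7-T replicate 1, respectively. In STHdhQ7 cells the change of 2.20 ± 0.90 did not pass (adjusted p = 0.252). Without Q7-T replicate 2 it did (2.75, adjusted p = 0.00472), and over the alternatives tried the adjusted p ran from 0.00472 to 0.765. The log2 change there ran from 0.20 to 2.94 (1.46 to 2.94 when single libraries were left out).

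The 3 RIG-I-like receptors can be summed, since TPM is scaled by length. Ddx58, Ifih1 and Dhx58 together made 4.21 ± 1.63 TPM in untreated and 20.8 ± 9.70 TPM in treated STHdhQ7 cells, and 36.1 ± 6.93 and 273 ± 55.9 TPM in STHdhQ111 cells (SD over 3 libraries). The mean Ddx58 share of that sum was 82.0% and 70.3% in untreated and treated STHdhQ7 cells, and 75.1% and 49.0% in STHdhQ111 cells. In treated STHdhQ111 cells the share ran from 47.5% to 50.6%, below every library of the other groups, whose lowest was 58.0% in Q7-T. The remainder there was mostly Dhx58, the receptor without a signalling domain.

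Mavs (chr2:131234063-131248025, plus strand), the adaptor on which RIG-I and MDA5 both depend, was not called in any of the comparisons tested. It measured 18.7, 30.4 and 31.4 TPM in Q7-C and 25.6, 12.6 and 24.9 TPM in Q7-T. Q111-C libraries held 31.5, 31.8 and 30.6 TPM and Q111-T libraries 27.2, 20.6 and 24.9 TPM. All Q111-T values lay below all Q111-C values, as for 29.8% of genes, and every other pair of neighbouring groups overlapped. The fitted changes were -0.19 (95% interval -0.48 to 0.11, edgeR adjusted p = 0.598) in STHdhQ7 cells and -0.27 (-0.57 to 0.02, adjusted p = 0.201) in STHdhQ111 cells. Between the treated lines the value was -0.15 (-0.45 to 0.14, adjusted p = 0.381), which became 0.26 with limma on log2(TPM + 0.5). Between the untreated lines the direction depends on the scale, with a TPM ratio of 1.17 and a fitted log2 fold change of -0.07.

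Tmem173, which encodes STING, the adaptor for cytosolic DNA, had the narrowest spread of the members that rose. Its libraries held 14.2, 17.3 and 15.6 TPM in Q7-C and 38.0, 41.6 and 38.2 TPM in Q7-T. They held 32.2, 30.7 and 31.6 TPM in Q111-C and 64.1, 64.1 and 61.0 TPM in Q111-T. No groups overlapped, and here, unlike Ifih1, treated STHdhQ7 cells lay above untreated STHdhQ111 cells. Treatment upregulated it by 1.57 ± 0.22 in STHdhQ7 cells (edgeR adjusted p = 0.00109) and by 1.11 ± 0.22 in STHdhQ111 cells (adjusted p = 0.00433). The STHdhQ111 change sits at the 2-fold threshold and fell under it in 4 of 24 alternatives. These were leaving out Q111-T replicate 2 (0.98, adjusted p = 0.0214) and limma at pseudocounts of 0.1, 0.5 and 1 (0.9996, 0.99 and 0.98). The adjusted p ran from 2.06e-05 to 0.026 over the alternatives. Between the treated lines the TPM ratio was 1.61, whereas the edgeR value was 0.22 (95% interval -0.26 to 0.70, adjusted p = 0.449).

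Tlr3 (chr8:45395665-45411080, minus strand), the endosomal receptor for double-stranded RNA, overlaps Gm45542 on the opposite strand. Levels were 0.894, 1.92 and 2.26 TPM in Q7-C and 6.44, 1.50 and 4.56 TPM in Q7-T, so that Q7-T replicate 2 lay within the untreated range. Q111-C libraries held 2.17, 3.18 and 3.15 TPM and overlapped both STHdhQ7 groups. Q111-T libraries held 33.1, 25.2 and 38.8 TPM, above all others. In STHdhQ111 cells Tlr3 was upregulated by 3.60 ± 0.35, or 12.1-fold (edgeR adjusted p = 2.17e-05), and between the treated lines the difference was 2.66 ± 0.33 (adjusted p = 9.93e-05). The STHdhQ7 change was 1.42 ± 0.32 (adjusted p = 0.0238). That call was lost in 9 of 24 alternatives (adjusted p 0.000456 to 0.342), among them leaving out Q7-C replicate 1 (1.21, 0.0776), Q7-C replicate 2 (1.48, 0.0771), Q7-T replicate 1 (1.09, 0.0803) or Q7-T replicate 3 (1.38, 0.063).

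Eif2ak2 (chr17:78852564-78882573, minus strand), which encodes PKR, had the highest mean of the 8 genes in every group. It measured 18.9, 36.7 and 38.7 TPM in Q7-C and 78.2, 35.0 and 82.1 TPM in Q7-T, and replicate 2 again lay within the untreated range. Q111-C libraries held 37.5, 44.1 and 49.7 TPM and Q111-T libraries 162, 92.7 and 189 TPM. Treatment raised it by 1.21 ± 0.23 in STHdhQ7 cells (edgeR adjusted p = 0.00799, lost in 4 of 24 alternatives, range 2.08e-05 to 0.246) and by 1.83 ± 0.23 in STHdhQ111 cells (adjusted p = 0.000199). Between the treated lines the groups did not overlap, and the change of 0.82 ± 0.23 passed on p but not on size (1.76-fold, adjusted p = 0.0154). It reached 2-fold without Q111-T replicate 2 (1.02, adjusted p = 0.00535; range over the alternatives 0.00268 to 0.0628).

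**Figure D3:**
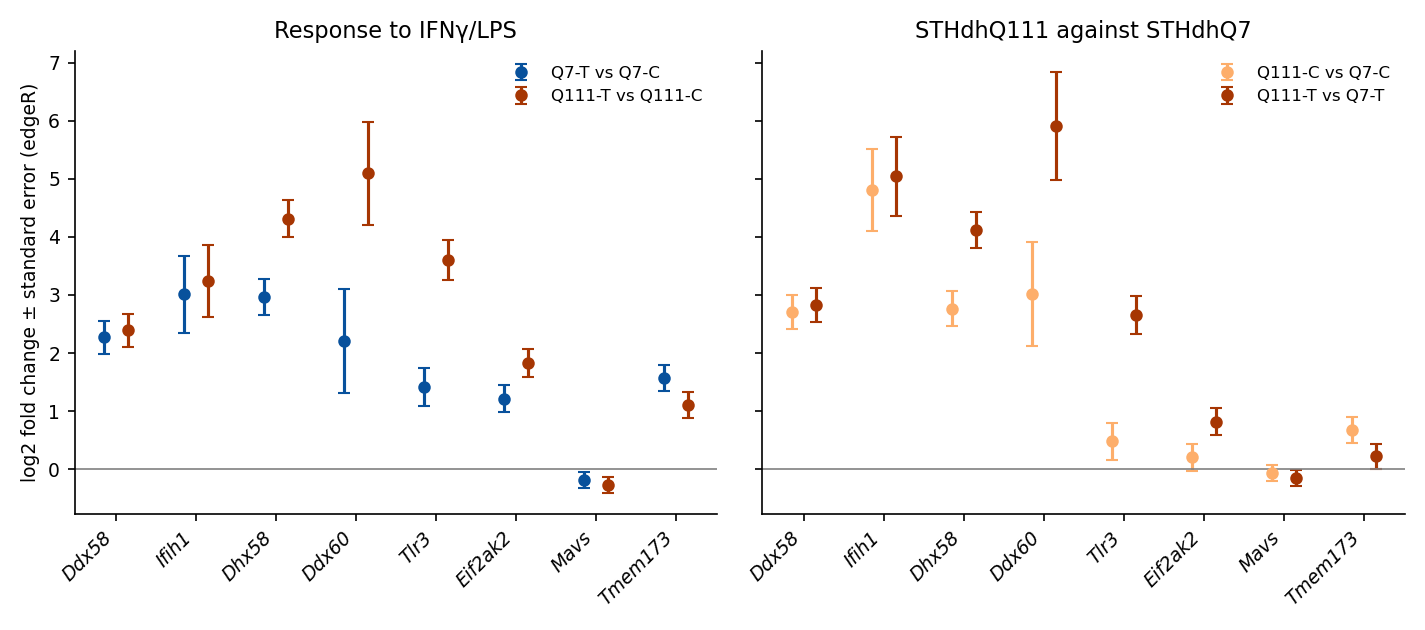
Log2 fold change of each member with its standard error (edgeR). Left, treated against untreated cells of each line. Right, STHdhQ111 against STHdhQ7 cells, untreated (a description, since it chose the set) and treated. Ddx58 moved by 2.27 and 2.39 in the 2 lines, and the Mavs intervals lie close to 0.

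Counted over the set, 5 of the 7 members with a test were called higher after treatment of STHdhQ7 cells, where 2.93% of all genes were. That count was 3 with limma at a pseudocount of 0.1, 2 at 0.5 or 1, 2 when only these libraries were fitted, and 6 without Q7-T replicate 2 and Q7-C replicate 1. In STHdhQ111 cells 6 of 7 were called higher against 8.28% of all genes, with Mavs the exception, and Ddx60 among them entered the fit through Q111-T. Between the treated lines 5 of 8 were called higher (13.3% of all genes), the 4 helicases and Tlr3. Here too Ddx60, 1 of these helicases, entered the fit through Q111-T, and it is part of the Q111-T medians and overlap counts below. Over the alternatives tried, the counts in STHdhQ111 cells and between the treated lines each ran from 5 to 6. None was called lower in these 3 comparisons (1.11%, 2.96% and 11.2% of all genes). The median log2 fold change was 1.57 and 3.24 within the lines, where Ddx58 is left out because its untreated levels chose the set, and 2.74 over all 8 genes between the treated lines, beside 0.003, -0.005 and -0.03 over all genes tested. Libraries of Q111-T lay above those of Q111-C without overlap for 6 of the 7 members other than Ddx58 (19.8% of genes), and above those of Q7-T for 7 of all 8 (33.9% of genes). For Q7-T against Q7-C the count was 3 of 7 (5.55% of genes). Between the untreated lines 5 of 8 members did not overlap (38.8% of genes; 7.62% of genes were called higher), and nothing is read from that count.

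Whether the lines responded to a different degree was tested as the difference between the responses (the interaction, STHdhQ111 minus STHdhQ7). It was called for 1 of 7 members, against 3.52% of all genes called higher. Tlr3 rose more in STHdhQ111 cells by 2.18 ± 0.45 on the log2 scale, or 4.54-fold (edgeR adjusted p = 0.0149). Without Q111-C replicate 1 this missed the threshold (2.02, adjusted p = 0.0529; range over the alternatives 9.28e-05 to 0.0917). Dhx58 had a difference of 1.35 (95% interval 0.47 to 2.24, adjusted p = 0.0768) and Ddx60 one of 2.89 (0.27 to 5.52, adjusted p = 0.205). Both passed under 6 of 23 alternatives, among them leaving out Q7-C replicate 1 for Dhx58 (1.63, adjusted p = 0.0115; range 0.00372 to 0.203) and Q7-T replicate 2 for Ddx60 (2.34, adjusted p = 0.0428; range 6.85e-05 to 0.502). For Ifih1 the difference of 0.24 passed under 3 of 23 alternatives, limma with a pseudocount of 0.5 or 1 and limma after rescaling (2.04, 2.22 and 1.94, with adjusted p of 0.00383, 0.000615 and 0.000954; range 0.000615 to 1.00). The intervals for Ifih1 (-1.71 to 2.18), Eif2ak2 (-0.09 to 1.32), Tmem173 (-1.14 to 0.23) and Mavs (-0.50 to 0.33) include 0. For Ddx58 the difference was 0.12 (-0.74 to 0.98), given as a description.

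Each sensor was also set against Mavs within the same library, a ratio that does not depend on how libraries are scaled. It does not remove the lower level of long genes described above. Mavs has 3345 exon bases, against 7050 for Ddx58, 8165 for Ifih1, 8684 for Ddx60 and 3272 for Dhx58. In Q7-T replicate 2 the Ddx58 ratio was 0.443 (0.807 and 0.784 in the others), but the Ifih1 ratio was 0.0362 (0.0313 and 0.0232). The part of length in the ratios was not tested. The ratio of Ddx58 to Mavs was 0.125 ± 0.0168 before and 0.678 ± 0.204 after treatment in STHdhQ7 cells, and 0.868 ± 0.175 and 5.49 ± 0.607 in STHdhQ111 cells (SD over 3 libraries). Dhx58 went from 0.0257 ± 0.00997 in Q7-C and 0.192 ± 0.0505 in Q111-C to 0.241 ± 0.0397 in Q7-T and 4.60 ± 0.357 in Q111-T. Ifih1 went from 0.0964 ± 0.0187 in Q111-C to 1.10 ± 0.15 in Q111-T, and Tlr3 from 0.0907 ± 0.0189 to 1.33 ± 0.194. In treated STHdhQ111 cells Ddx58, Dhx58, Tlr3 and Eif2ak2 were therefore above their library's Mavs level in each of 3 libraries, and Ddx60 was below it at 0.625 ± 0.121. Of these 6 sensors only Eif2ak2 was above Mavs in Q7-T libraries, at 3.04 ± 0.263. On the log2 scale, with 0.5 TPM added to each gene, the ratio groups did not overlap between the treated lines for any of the 6 sensors. For those other than Ddx58, whose untreated levels chose the set, the ratio groups also did not overlap after treatment of either line. For Ddx60 in STHdhQ7 cells this rests on the added 0.5 TPM, since Q7-T replicate 2 had 0 counts and the plain ratios overlap. In each of the 16 tests made, the exact two-sided permutation p was 0.1, the smallest that 3 libraries against 3 allow (adjusted 0.1).

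**Figure D4:**
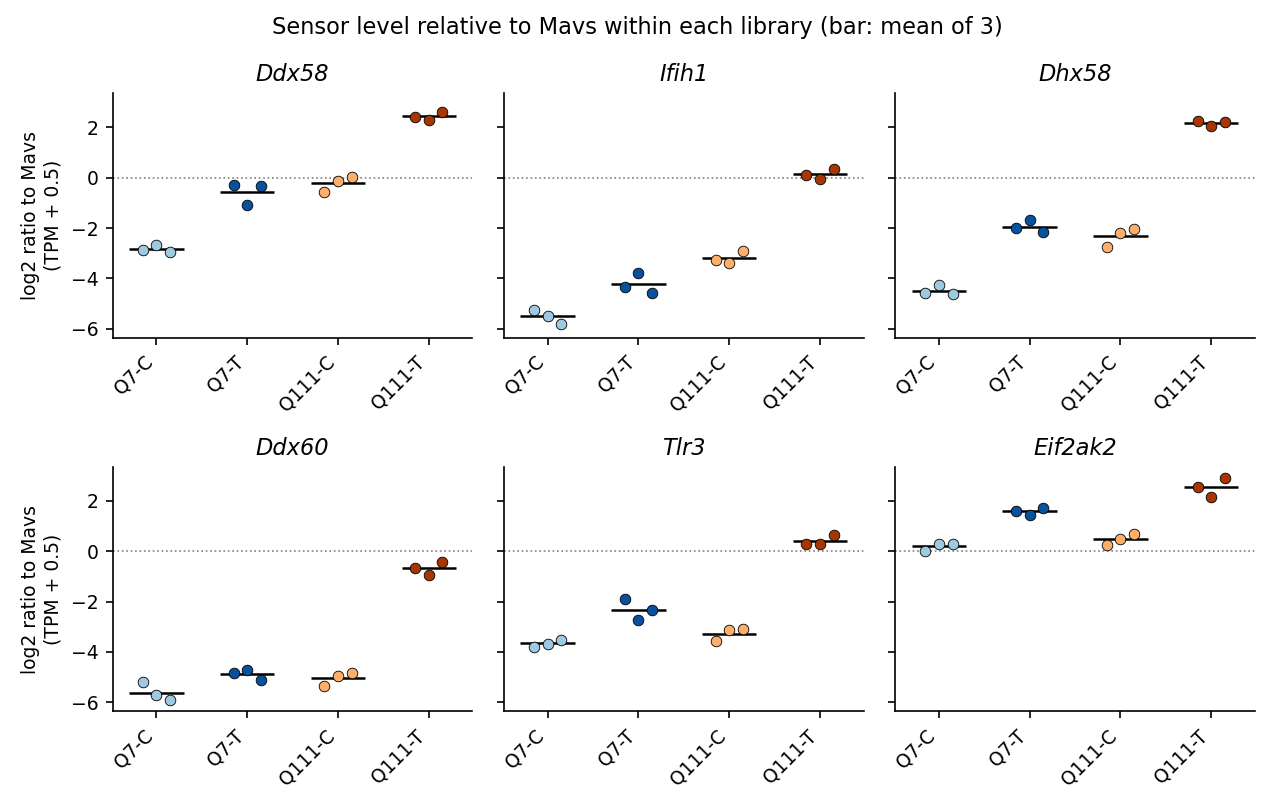
Level of 6 sensors relative to Mavs in the same library (y axis: log2 of the ratio, 0.5 TPM added to both; points: libraries; bar: mean of 3; dotted line: equal levels). Q111-T libraries are the highest for each sensor, and the Ddx58 ratio of Q111-C lies near that of Q7-T.

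The order of the members differed between the groups. In Q7-C, Eif2ak2 and Mavs overlapped at the top (31.4 and 26.8 TPM), followed by Tmem173 (15.7) and, lower, Ddx58, Tlr3, Dhx58, Ifih1 and Ddx60. In Q111-C Ddx58 overlapped Mavs and Mavs overlapped Tmem173. Treated STHdhQ111 cells had Eif2ak2, Ddx58 and Dhx58 at the top with overlapping values (148, 134 and 112 TPM), then Tmem173 (63.1) and Tlr3 (32.4). There Mavs ranked 7 of 8 and overlapped Ifih1.

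The genes whose levels over the 12 libraries were most like a member's, each gene centred on its own mean, are given as a description. For Ddx60 they were Oas2, Atg9b and Nkx2-9, with mean absolute log2 differences from 0.27 to 0.33 beside a median of 1.62 over all genes. Dhx58 was close to Oas1b (0.29) and Ifi44 (0.35, median 1.88), and Ifih1 like Gm20559, Helz2 and Trim34b (0.21 to 0.27, median 1.69). Ddx58 was nearest to Dcn, Helz2 and Ampd3 (0.33 to 0.34, median 1.47). Tlr3 was nearest to Parp11, Ifit2 and Csrnp1 (0.26 to 0.29, median 1.32) and Eif2ak2 to Adar, Ggta1 and Rnd3 (0.16 to 0.19, median 0.83). Tmem173 was nearest to Gla, Kyat3 and Pfkl (0.13 to 0.17, median 0.70), and Mavs to Nars, Zfp282 and Mapkap1 (0.058 to 0.061, median 0.38).

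The rest of the pathway was read from lists of 155 other genes, of which 141 were tested. In STHdhQ7 cells 21 were called higher and 1 lower after treatment (14.9% and 0.709%, beside 2.93% and 1.11% of all genes), and in STHdhQ111 cells 35 higher and 2 lower (24.8% and 1.42%, beside 8.28% and 2.96%). Of the treated lines, STHdhQ111 had 38 of them higher and 18 lower (27.0% and 12.8%, beside 13.3% and 11.2%), and the share lower is near that of all genes. The median log2 fold changes were 0.12, 0.18 and 0.23, beside 0.003, -0.005 and -0.03 over all genes tested. Thus 119, 104 and 85 of the 141 genes were not called in these comparisons.

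Among 26 regulators and partners of the RIG-I-like receptors, 1 was called higher in STHdhQ7 and 3 in STHdhQ111 cells, or 3.85% and 11.5%, close to the 2.93% and 8.28% of all genes. Trim25, the ubiquitin ligase that activates RIG-I, rose by 1.61 and 1.44 (edgeR adjusted p = 0.000307 and 0.000267), and its level after treatment was 2.98 higher in STHdhQ111 cells (1.31e-06). Zc3hav1, an antiviral zinc finger protein, was called in STHdhQ111 cells at 1.35 (0.00051). Of 22 genes that signal below MAVS, STING and the TLR3 adaptor TRIF, 2 were called higher in STHdhQ7 and 5 in STHdhQ111 cells. Irf7, the interferon regulatory factor that is itself induced, went from 0.672 to 0.923 TPM in Q7-C to 18.3 to 21.9 in Q7-T, and from 11.1 to 21.2 in Q111-C to 245 to 289 in Q111-T. It rose by 4.88 and 4.19 in the 2 lines (adjusted p = 1.48e-06 and 2.46e-06). Ikbke, a kinase of IRF factors, rose by 1.27 and 2.30, and was one of 2 genes of the list with a called difference between the responses (9.09% beside 3.52% of all genes), at 1.03 (adjusted p = 0.031). The other was Irf5 (1.34, adjusted p = 0.011). The call was kept in 12 of 23 alternatives for Ikbke (adjusted p 0.00123 to 0.165) and in 23 of 23 for Irf5 (1.38e-05 to 0.0398). The constitutive pair Tbk1 and Irf3 was not called in either line, at 0.35 and 0.93 for Tbk1, the second under the 2-fold threshold (adjusted p = 0.00816), and 0.10 and -0.24 for Irf3, nor was the adaptor Ticam1 (0.31 and -0.43).

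The 2-5A synthetases bind double-stranded RNA and activate RNase L. Among the lists, the members of the set left out, theirs had the largest share called higher: 46.2% in STHdhQ7 cells, 61.5% in STHdhQ111 cells and 69.2% between the treated lines. With the eIF2 kinases 13 genes of that list were tested: 6 were called higher in STHdhQ7 cells, 8 in STHdhQ111 cells and 9 between the treated lines, where 1 was lower (of all genes 2.93%, 8.28%, 13.3% and 11.2%). Oasl2 rose from 0.105 to 1.07 TPM in Q7-C to 16.4 to 33.5 in Q7-T, and from 5.87 to 9.75 in Q111-C to 222 to 273 in Q111-T. Oas3 rose by 2.88 in STHdhQ7 cells (edgeR adjusted p = 0.0363) and 5.88 in STHdhQ111 cells (0.000157). Members of the Oas1 family have near-identical copies, so values for Oas1a and Oas1g are uncertain. The median change of the list was 2.34 in STHdhQ7 cells, or 1.80 with Oas1g set at its lower bound, and 1.77 in STHdhQ111 cells. The other eIF2 kinases Eif2ak4 (-0.16 and -0.36) and Eif2ak1 (0.44 and -0.26) were not called.

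Of 23 genes for DNA sensing and nucleic acid clearance, 3 were called higher and 1 lower in STHdhQ7 cells, and 5 higher and 1 lower in STHdhQ111 cells (of all genes 2.93% and 1.11%, and 8.28% and 2.96%). Cgas, the DNA sensor above STING, measured at most 0.179 TPM in every STHdhQ7 library, from 4 to 28 estimated counts. It measured 9.46 to 10.5 TPM in Q111-C and 17.7 to 26.4 TPM in Q111-T. Its change of 1.33 in STHdhQ111 cells did not pass (edgeR adjusted p = 0.0671). The STHdhQ7 counts lie about the floor of 12 estimated counts, or about 3 read pairs. The gene entered the fit through STHdhQ111 libraries, so no fold against STHdhQ7 cells is given. Tmem173, its adaptor, was present in all groups as given above. Zbp1, a sensor of Z-form nucleic acid, rose by 6.42 and 6.57, and Samhd1, a nucleotide hydrolase, by 2.53 and 3.31. Enpp1, which degrades the cGAS product, fell by 1.57 in STHdhQ7 and by 1.52 in STHdhQ111 cells.

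Of 9 genes for the endosomal receptors, Myd88 alone was called after treatment of each line (1.02 and 1.59), a share of 11.1% beside 2.93% and 8.28% of all genes. Unc93b1, which carries TLR3 to the endosome, measured 0.320 to 0.645 TPM in Q7-T and 7.24 to 11.1 TPM in Q111-T, a difference of 3.73 (edgeR adjusted p = 5.43e-06). Of 8 tested interferon and interferon receptor genes, 1 was called higher in STHdhQ7 and 3 in STHdhQ111 cells (2.93% and 8.28% of all genes). Of these 3, Ifnb1 and Ifna4 entered the fit through Q111-T alone, so nothing is read from the count of 3 beside that share. Ifnb1 had 0 counts in all Q7-C and Q111-C libraries, 12, 0 and 0 estimated counts in Q7-T and 103, 84 and 56 in Q111-T. Against a floor of 12 estimated counts per library it was at least 6.77-fold higher in Q111-T than in Q111-C and at least 4.31-fold higher than in Q7-T. Ifna4 was counted only in Q111-T (70, 79 and 16 counts), and as one of a family of near-identical genes it is uncertain. Ifnar2, a receptor chain, rose by 1.01 and 1.46 in the 2 lines.

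Over all the lists, 3 of the 141 genes had a called difference between the responses, Ikbke, Irf5 and Il6, all larger in STHdhQ111 cells, and this share of 2.13% lies below the 3.52% of all genes. Il6, an inflammatory cytokine, rose from 0.282 to 2.98 TPM in Q111-C to 537 to 742 TPM in Q111-T, and measured 3.61 to 21.5 TPM in Q7-T libraries. Its difference between the responses was 5.48 (edgeR adjusted p = 0.031), called in 14 of 23 alternatives (0.000665 to 0.0893). The count of 3 depends on single libraries: it was 8 without Q7-C replicate 1, 5 without Q7-T replicate 1, and 1 without Q7-C replicate 2 or 3, Q111-C replicate 1 or 2, or Q111-T replicate 1 or 3.

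**Figure D5:**
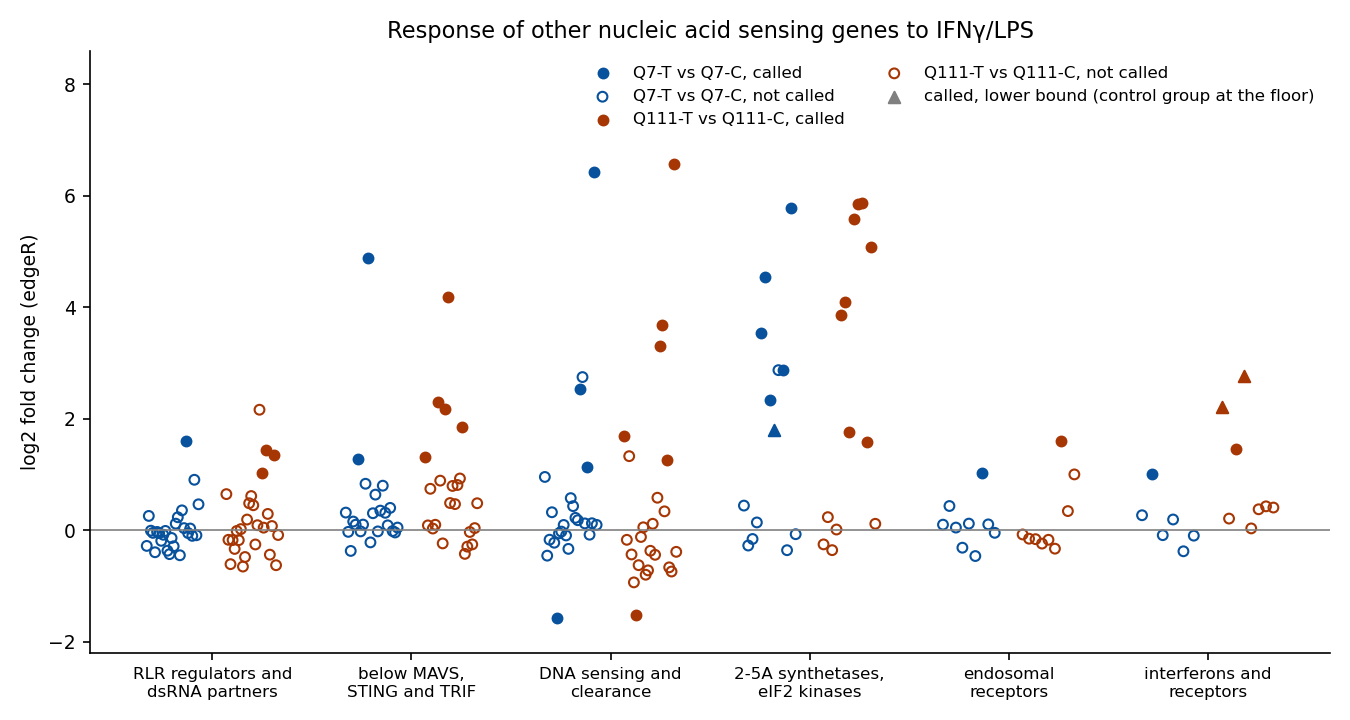
Log2 fold change after IFNγ/LPS for the tested genes of 6 lists (blue: STHdhQ7; red: STHdhQ111; filled: called; triangles: lower bounds where the untreated libraries had at most 12 estimated counts; genes at that floor in both groups are not drawn). Most regulators lie near 0, and the list of 2-5A synthetases and eIF2 kinases holds the largest group of called genes.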

How the data were processed

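The authors trimmed paired reads of strand-specific poly(A) libraries with Cutadapt, aligned them to GRCm38 with HISAT2 and assembled and quantified transcripts with StringTie. The deposited table gives estimated counts and TPM per gene and library, and per the labels the 12 libraries fall into 4 groups of 3. A read pair was taken to add about 4 estimated counts. The basis is indirect: among counts below 60, multiples of 4 were 1.17 to 1.46 times as frequent as other even counts. The floor used for genes near 0 was therefore 12 estimated counts, or about 3 read pairs, per library. It covers counting error only, and bounds that use it rest on this estimate. TPM summed to 688352 to 719623 per library. No per-sample column lacked a sample.

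The members and lists were chosen with earlier results of these data known. Estimated counts were rounded, filtered at 0.5 TPM in 3 libraries (16127 genes) and fitted with edgeR 4.0.16 (quasi-likelihood test, TMM, a mean per group over all 12 libraries) in R 4.3.3, with Benjamini-Hochberg adjustment over all genes tested. SD is between libraries and SE is from the fit. The fit was tested on simulated data. Ratios to Mavs were compared with an exact permutation test (scipy 1.17.1). Alternatives used DESeq2 1.42.0, limma 3.58.1 on log2(TPM + 0.5), other filters and scalings, a replicate block and leaving out each library.

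All 8 members were named. Of each list the text may name the genes highest in TPM, those with the largest and smallest change in STHdhQ111 cells and the largest interactions, and a fixed set of interferon and adaptor genes. Replicates of a group differed by more than sampling noise (smallest chi-square per degree of freedom 5.26, on estimated counts divided by 4 to approximate read pairs). Columns of the authors' own comparisons were not used. Of the genes most like a member, 1 is not reported here.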

Additional observations from a re-analysis of the deposited data

Results flagged for a closer look

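The response of Tlr3 to IFNγ/LPS differed between the lines in the test of the difference itself. It was larger in STHdhQ111 than in STHdhQ7 cells by 2.18 ± 0.45 on the log2 scale (SE, edgeR adjusted p = 0.0149). The rise was 12.1-fold in STHdhQ111 cells and 2.67-fold in STHdhQ7 cells, and all 3 Q111-T libraries lay above every other library. Over the alternatives tried the difference ran from 1.89 to 2.50 with adjusted p from 9.28e-05 to 0.0917, and no alternative turned its direction.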

How the results depend on the processing

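Called changes of members kept their direction under every alternative run. Among values not called, the Ifih1 interaction of 0.24 ran from -0.95 to 0.76 when single libraries were left out and reached 2.22 over all alternatives, being called in 3 of 23, and Mavs turned with limma at pseudocounts of 0.1, 0.5 and 1, from -0.15 to 0.26, 0.26 and 0.25 between the treated lines and from -0.09 to 0.0045, 0.0026 and 0.00042 in the interaction. The 5 members called in STHdhQ7 cells became 3 with limma on log2(TPM + 0.1), 2 with a pseudocount of 0.5 or 1, and 2 when only the libraries of the comparison were fitted. Pathway genes called there fell from 22 to 14 in the latter fit. Members called in the interaction numbered 2 with DESeq2, 4 with limma at a pseudocount of 0.5 or 1 and 4 after rescaling by the median of ratios. Pathway genes called in the interaction rose from 3 to 7 with DESeq2, 8, 12 and 15 with limma at pseudocounts of 0.1, 0.5 and 1, and 11 after rescaling. Leaving out each library gave 4 to 6 members called in STHdhQ7 cells, 0 to 2 in the interaction, 18 to 25 pathway genes in STHdhQ7 cells and 1 to 8 in the interaction. Without both STHdhQ7 libraries that stood apart, an alternative chosen after seeing the data, 3 members and 9 pathway genes were called in the interaction. The cause of these shifts was not tested. The low counts of Ifih1 and Ddx60 in STHdhQ7 cells limit their precision there.

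With the replicate number as a block, members called were 4, 6, 5 and 1 in the comparisons within STHdhQ7, within STHdhQ111, between the treated lines and in the interaction, and pathway genes 21, 35, 55 and 1. Same-numbered libraries of treated and untreated cells did not deviate together (r from -0.58 to 0.45), so the numbers are not taken as pairs.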
